A study of Mus musculus with 6 samples.

Results

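The glutathione S-transferases described here are 10 mouse genes, Gsta2, Gsta3, Gsta4, Gstm1, Gstm2, Gstm3, Gstp1, Gstt1, Gstt3 and Mgst1. They were measured by 16 of the 45101 probe sets of an Affymetrix mouse array, every probe set whose annotation holds exactly 1 gene symbol and that symbol is a member. A probe set is a group of short probes read together for a transcript. Livers of 3 mutant and 3 control mice were compared, 1 array per mouse, all of them males aged 3 weeks. Mutants were Srf loxP/loxP AlfpCre, with both copies of Srf flanked by loxP sites, and their sampled tissue lacked Srf according to the design text. Controls were Srf loxP/+ AlfpCre, with 1 flanked and 1 normal copy, so every mouse carried the Cre transgene and at least 1 flanked copy. AlfpCre drives Cre recombinase from control elements of the albumin and alpha-fetoprotein genes, so cells of liver outside the hepatocyte and bile duct lineage are not its targets. The comparison asks how transcripts of these enzymes differ in liver when both copies of Srf, a transcription factor of actin and immediate early genes, are targeted.

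Glutathione S-transferases join the tripeptide glutathione to electrophilic compounds, which makes drugs, carcinogens and products of lipid peroxidation more soluble and ready for export. The soluble enzymes work as dimers and are sorted by sequence into classes, here alpha (Gsta), mu (Gstm), pi (Gstp) and theta (Gstt), while Mgst1 belongs to a separate family of membrane proteins. Liver is rich in them, and several are induced in rodents through the antioxidant response element, which NRF2 binds, and through the xenobiotic receptors CAR and PXR.

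No member differed past the threshold in mutant liver. At an adjusted p of 0.05 in limma, 0 of the 16 probe sets were called, where 0.074% of all 27022 probe sets kept were called, 0.0148% higher and 0.0592% lower in mutants. At an unadjusted p under 0.05 there was 1 member probe set, that of Gstm2, against 13.8% of all probe sets kept, 7.6% higher and 6.18% lower. In 5 member probe sets all 3 mutants lay beyond all 3 controls. Gstm2 was below, and Gstp1 and 3 of the 4 probe sets of Gstm1 were above. That is 31.2% of the 16, where 23.2% of all probe sets kept had groups that did not overlap, 13.8% higher and 9.36% lower in mutants. All 16 passed the filter on dim probe sets, 9 with a positive and 7 with a negative log2 difference. The median difference of the 16 was 0.05, beside 0.08 over all probe sets kept.

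The signals given here are log2 of the array brightness after each array was scaled to the same trimmed mean, so 1 unit is a doubling, and differences are mutant minus control. Signals of different probe sets are not set against each other, because probes differ in how strongly they bind. Before scaling, the trimmed mean was between 37.3 and 58.1 on the mutant arrays and between 55.2 and 69.9 on the control arrays. On the deposited scaling the median difference of all probe sets kept was -0.37, and all 16 member differences were negative. Pairs of mutant arrays had a correlation of 0.827 to 0.907 over the probe sets, and pairs of control arrays 0.937 to 0.941. The 3' to 5' ratio of the Pcx control probe sets, a sign of RNA integrity, was 17.3, 6.39 and 10.5 in mutants 1 to 3 and 4.94, 4.44 and 7.03 in controls 1 to 3 (two-sided exact permutation p = 0.2). For Gapdh it was 1.01, 0.773 and 0.866 in mutants and 0.711, 0.679 and 0.756 in controls, higher in every mutant (p = 0.1, the smallest an exact permutation test of 3 against 3 can give), and for Actb the exact p was 0.2. Mutant 1 was the highest of the 6 arrays in all 3 ratios, and each ratio had a higher mean in mutants than in controls. The mean log2 of the 3 ratios, used below as a covariate and named the 3' to 5' index, thus goes in part with genotype. On 6 arrays the 2 cannot be told apart, so differences fitted with the index are not values corrected for RNA integrity. The Srf probe set 1418256_at had log2 signals of 4.17, 5.24 and 2.54 in mutants 1 to 3, against 5.31, 5.14 and 5.11 in controls, and did not pass (adjusted p = 0.398, limma). There mutant 2 sat among the controls. On the other, 1418255_s_at, the values were 3.29, 0 and 1.99 in mutants 1 to 3, against 3.00, 3.69 and 3.37 in controls (adjusted p = 0.411, limma). There mutant 2 was at the floor and mutant 1 sat among the controls, and the mutant mean of 1.76 lay below the background level of 3.06, which is the 95th percentile of 81 probe sets of olfactory, vomeronasal and taste receptors in mutants. Whether these probes target sequence that Cre removes is not stated, so the values are no check of the labels.

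**Figure D1:**
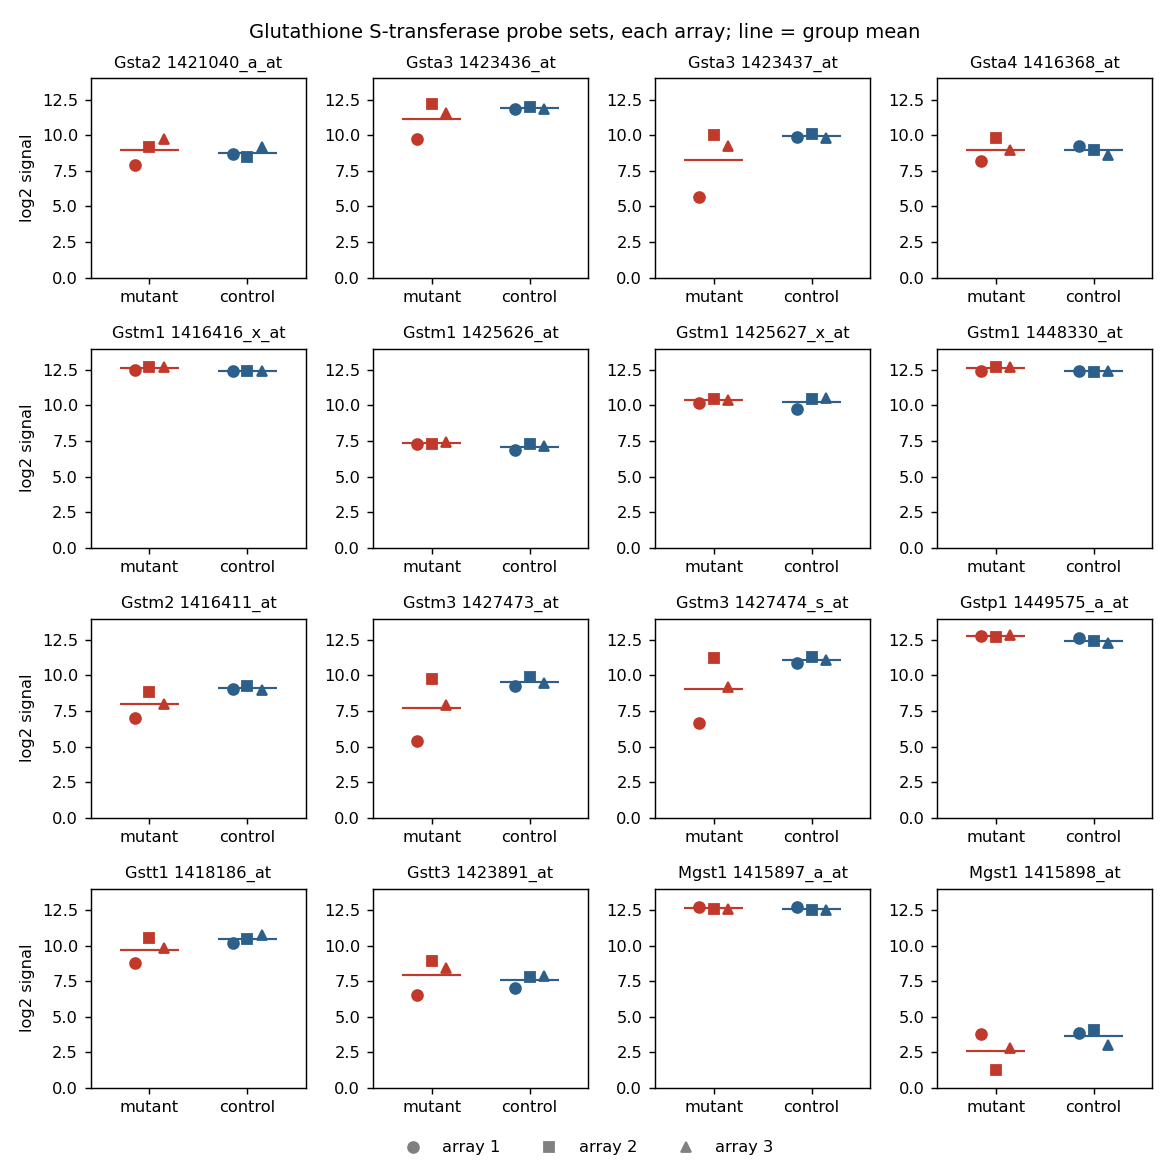
Log2 signal of the 16 member probe sets on each array, mutants in red at the left and controls in blue at the right of each panel; symbols give the array number and the line is the group mean. Mutant 1 is the lowest of the mutants in 13 of the 16 panels, while the bright probe sets of Gstm1, Gstp1 and Mgst1 stay level over all 6 arrays.

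The mu class held the lowest differences of the family, those of Gstm3. Gstm1, Gstm2 and Gstm3 encode soluble mu class subunits. In the RefSeq annotation of GRCm38.p6 the mu genes of chromosome 3 follow each other without another protein-coding gene between them, in the order Gstm5, Gstm7, Gstm6, Gstm3, Gstm2, Gstm1 and Gstm4. The 250 bases before the start site of 3 neighbouring members are shown because these neighbours differ in their values over the mutant arrays, and those of Gstp1 because they hold the motifs described next. Sequences, positions and strands are from RefSeq, GRCm38.p6. Capitals mark motifs found by a search of both strands, and a sequence with no capitals held none of them.
Gstm3, chr3:107969175-107969424, minus strand: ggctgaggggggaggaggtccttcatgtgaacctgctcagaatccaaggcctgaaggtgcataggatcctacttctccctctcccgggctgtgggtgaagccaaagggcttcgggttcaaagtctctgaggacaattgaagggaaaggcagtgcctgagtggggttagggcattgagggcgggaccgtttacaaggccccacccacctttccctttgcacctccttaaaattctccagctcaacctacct
Gstm2, chr3:107986421-107986670, minus strand: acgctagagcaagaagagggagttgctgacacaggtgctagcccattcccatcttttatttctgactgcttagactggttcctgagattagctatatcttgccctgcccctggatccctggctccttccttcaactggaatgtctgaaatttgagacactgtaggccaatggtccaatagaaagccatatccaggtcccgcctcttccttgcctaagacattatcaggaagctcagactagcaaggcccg
Gstm1, chr3:108017819-108018068, minus strand: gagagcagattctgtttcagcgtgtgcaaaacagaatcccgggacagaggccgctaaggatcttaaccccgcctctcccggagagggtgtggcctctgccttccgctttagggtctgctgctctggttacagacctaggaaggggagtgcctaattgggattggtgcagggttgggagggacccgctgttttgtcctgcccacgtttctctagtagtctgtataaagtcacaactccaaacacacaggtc
Gstp1, chr19:4037913-4038162, minus strand: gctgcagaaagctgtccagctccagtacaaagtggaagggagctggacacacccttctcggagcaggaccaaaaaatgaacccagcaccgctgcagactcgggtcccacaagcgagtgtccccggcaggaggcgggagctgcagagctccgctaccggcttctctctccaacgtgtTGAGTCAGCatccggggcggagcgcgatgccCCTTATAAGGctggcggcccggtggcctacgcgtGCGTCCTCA

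In a global alignment the Gstm1 and Gstm3 stretches shared 154 of 250 bases, those of Gstm2 and Gstm3 shared 137, and those of Gstm1 and Gstm2 shared 130. Gstm1 has another start site, whose stretch is not shown. It shared 134 bases with Gstm3 and 129 with Gstm2, so the order of the pairs depends on the start site taken. No such count is given for unrelated genes, so these counts do not show likeness. The motifs searched were TGACNNNGC and TGAGNNNGC for the antioxidant response element core, TGANTCA for AP-1, TTCNNNGAA for STAT5 and the CArG box by name, the element that SRF binds. In Gstp1 the run TGAGTCAGC began 74 bases before the start site. It matched TGAGNNNGC and, over its first bases, TGANTCA, so these matches overlap. A CArG box, CCTTATAAGG, began 43 bases before the Gstp1 start site, and a further TGAGNNNGC match on the other strand began 9 bases before it. The 12 member start sites in the table belong to 9 of the 10 genes, and of the 32841 start sites of all genes 14.4% held TGAGNNNGC, 6.75% TGANTCA and 1.47% a CArG box. TGACNNNGC, held by 10.2% of all, was found before start sites of Gsta3 and Mgst1, and TGAGNNNGC also before that of Gstt1. TTCNNNGAA, held by 7.02% of all, was found before no member start site in this window. A match is a run of letters and no shown site of binding.

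Gstm2 (1416411_at) had log2 signals of 7.03, 8.86 and 7.995 in mutants 1 to 3, against 9.08, 9.25 and 8.98 in controls 1 to 3. All 3 mutants lay below all 3 controls, mutant 2 by the least. The log2 difference was -1.14 (SE 0.42, 95% interval -2.12 to -0.16, adjusted p = 0.336, limma), a 2.21-fold lower mean. It was -0.68 without mutant 1 and -1.59 without mutant 2, and -0.06 with the 3' to 5' index as a covariate. Among the brightest probe sets of the 10 members, Gstm2 had the smallest p and kept its negative sign in each of the 16 other settings run.

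Gstm3 varied widely over the mutants on both of its probe sets. The brighter, 1427474_s_at, which can detect related transcripts, had 6.64, 11.25 and 9.19 in mutants 1 to 3, against 10.88, 11.29 and 11.09 in controls. Mutants 1 and 3 lay below every control and mutant 2 within the control range. The log2 difference was -2.06 (SE 0.97, 95% interval -4.28 to 0.17, adjusted p = 0.378, limma). The other, 1427473_at, had 5.41, 9.73 and 7.91 in mutants, against 9.27, 9.88 and 9.49 in controls, with the arrays in the same order and a difference of -1.87 (adjusted p = 0.387, limma). Leaving out mutant 1 moved the difference of 1427474_s_at to -0.86, and leaving out mutant 2 to -3.17 (adjusted p = 0.0613, limma). With the 3' to 5' index as a covariate the sign turned, to 0.56 and 0.64 on the 2 probe sets.

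Gstm1, an abundant mu subunit of mouse liver, was level by comparison. Its probe set 1448330_at had 12.45, 12.73 and 12.71 in mutants, against 12.42, 12.38 and 12.42 in controls. All 3 mutants lay just above all 3 controls, and the difference was 0.23 (SE 0.19, 95% interval -0.21 to 0.67, adjusted p = 0.566, limma). The shared probe set 1416416_x_at gave 0.22 and the dimmer 1425626_at 0.26, both with separated groups, and the shared 1425627_x_at gave 0.10 with overlapping groups. The adjusted p of these was 0.57, 0.575 and 0.86 in limma. On the deposited scaling the 4 differences were -0.22, -0.23, -0.19 and -0.35 in the same order, so the direction of Gstm1 depends on how the arrays are scaled.

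Differences between members on the same array do not depend on that scaling, which multiplies each array by 1 factor. Gstm2 minus Gstm1, taken at the brightest probe set of each and set against the control mean, was -2.15, -0.55 and -1.38 in mutants 1 to 3, against -0.04, 0.17 and -0.13 in controls 1 to 3. The ratio of these neighbouring genes thus lay lower on every mutant array than on any control, by 1.36 in the mean. For Gstm3 minus Gstm1 the values were -4.52, -0.14 and -2.16 in mutants, against -0.23, 0.23 and 0.00 in controls, and mutant 2 lay within the controls. Quantile normalization can alter these pairs. After it Gstm2, Gstm3 and Gstm1 had differences of -1.11, -2.09 and -0.19, where they had -1.14, -2.06 and 0.22 as reported. This Gstm1 probe set is among those with a mean log2 signal above 12, whose median difference was 0.35. The pairs were chosen after the values were seen and carry no test. Unequal change within an array does not say which of the pair moved.

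**Figure D2:**
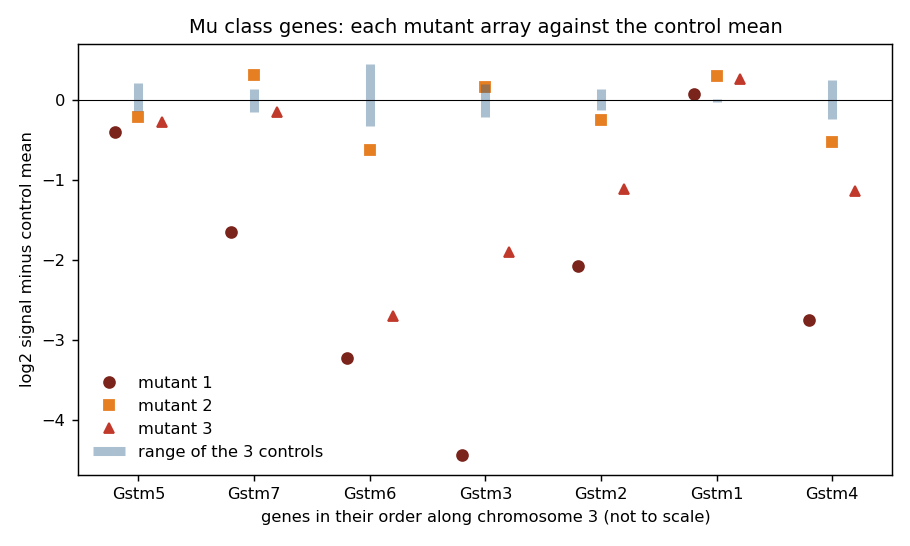
Log2 signal minus the control mean for the 7 mu class genes in their order along chromosome 3, at the brightest probe set of each; points are the 3 mutant arrays and bars the range of the 3 controls. Gstm1 sits slightly above the control mean on all 3 mutant arrays, between Gstm2 and Gstm4, which sit below the controls on all 3.

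The other mu genes of the cluster are not among the 10 members. Gstm6 (1422072_a_at) had 4.60, 7.20 and 5.13 in mutants, against 8.29, 7.69 and 7.50 in controls, a difference of -2.18 (adjusted p = 0.292, limma). Gstm4 (1424835_at) had 5.68, 7.92 and 7.30 in mutants, against 8.42, 8.69 and 8.20 in controls, a difference of -1.47 (adjusted p = 0.331, limma). In both genes the groups did not overlap, and mutant 1 was the lowest. Gstm5 had -0.29 with separated groups and Gstm7 -0.49 with overlapping groups, neither past the threshold. Of the 7 mu genes at their brightest probe set, 4 had every mutant below every control and 1, Gstm1, every mutant above, beside 10.8% of all 13144 genes lower and 14.1% higher. On the deposited scaling and after quantile normalization the same 4 were separated and Gstm1 was not.

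In the alpha class no member had separated groups. Gsta3, a mouse subunit known for detoxifying the epoxide of aflatoxin B1, had 9.71, 12.19 and 11.60 in mutants, against 11.88, 11.99 and 11.84 in controls on 1423436_at. Mutant 2 lay above the controls and mutants 1 and 3 below them. The difference was -0.74 (SE 0.56, 95% interval -2.02 to 0.55, adjusted p = 0.527, limma). On the dimmer 1423437_at mutant 1 had 5.64, against 9.99 and 9.24 in mutants 2 and 3 and 9.83 to 10.12 in controls, and the difference was -1.64 (adjusted p = 0.439, limma). Without mutant 1 the 2 probe sets gave -0.01 and -0.32, and with the 3' to 5' index as a covariate 0.72 and 0.95. Without mutant 2 the 2 probe sets gave -1.25 and -2.49, with mutants 1 and 3 below every control on both. The size of the Gsta3 difference therefore depends on mutants 1 and 2.

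Gsta2, whose product conjugates a broad range of electrophiles and is inducible by antioxidants in mouse liver, had 7.90, 9.17 and 9.76 in mutants, against 8.66, 8.49 and 9.20 in controls (1421040_a_at). Mutant 1 was the lowest of the 6 arrays and mutant 3 the highest, and the difference was 0.16 (95% interval -0.89 to 1.22, adjusted p = 0.878, limma). The probe set 1421041_s_at, which is annotated to Gm3776, Gsta1 and Gsta2 together and so is not a member, had -0.03 (adjusted p = 0.977, limma). Gsta4, which acts on 4-hydroxynonenal from lipid peroxidation, had 8.23, 9.79 and 8.99 in mutants, against 9.24, 8.96 and 8.61 in controls (1416368_at). Here too mutants lay on both sides of the controls, and the difference was 0.06 (95% interval -0.84 to 0.97, adjusted p = 0.948, limma). The sign of Gsta2 and of Gsta4 turned on the deposited scaling, to -0.29 and -0.39.

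Gstp1, the pi class enzyme, which is more abundant in male than in female mouse liver, had 12.75, 12.67 and 12.85 in mutants, against 12.64, 12.40 and 12.31 in controls (1449575_a_at). All 3 mutants lay above all 3 controls by a small margin. The difference was 0.31 (SE 0.19, 95% interval -0.14 to 0.76, adjusted p = 0.461, limma), a 1.24-fold higher mean. It was -0.14 on the deposited scaling and -0.08 after quantile normalization, so its direction also depends on the scaling. Gstp3 (1424953_at) is no member and lies beyond Gstp2, the protein-coding gene next to Gstp1. It had 5.78, 7.78 and 7.13 in mutants, against 7.70, 7.83 and 8.43 in controls. The groups overlapped, with a difference of -1.09 (adjusted p = 0.371, limma).

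The theta class genes Gstt1 and Gstt3 lie side by side on chromosome 10 and had differences of opposite sign. Gstt1, whose product conjugates small halogenated compounds such as dichloromethane, had 8.77, 10.50 and 9.80 in mutants, against 10.15, 10.45 and 10.72 in controls (1418186_at). The groups overlapped through mutant 2, and the difference was -0.75 (95% interval -1.71 to 0.21, adjusted p = 0.419, limma). It turned to 0.13 with the 3' to 5' index as a covariate. Gstt3 had 6.54, 8.95 and 8.39 in mutants, against 7.02, 7.77 and 7.85 in controls (1423891_at). Mutants 2 and 3 lay above every control and mutant 1 below, and the difference was 0.41 (95% interval -0.93 to 1.76, adjusted p = 0.737, limma), or 1.13 without mutant 1 (adjusted p = 0.176) and -0.08 without mutant 2. Gstt1 minus Gstt3 within arrays was lower than the control mean by -0.66, -1.35 and -1.49 in mutants 1 to 3, against 0.23, -0.21 and -0.02 in controls, a description of a pair chosen after its values were seen.

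Mgst1, an enzyme of the endoplasmic reticulum and outer mitochondrial membrane, was the most level member across the mutants. Its bright probe set 1415897_a_at had 12.68, 12.58 and 12.58 in mutants, against 12.71, 12.52 and 12.51 in controls. The groups overlapped, and the difference was 0.03 (SE 0.19, 95% interval -0.39 to 0.46, adjusted p = 0.941, limma). On the deposited scaling it was -0.42, and after quantile normalization -0.35 with every mutant below every control. The second probe set, 1415898_at, had 3.81, 1.23 and 2.79 in mutants, against 3.83, 4.05 and 3.01 in controls. In mutants it averaged 2.61, under the background level of 3.06, so it gives no size of change.

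**Figure D3:**
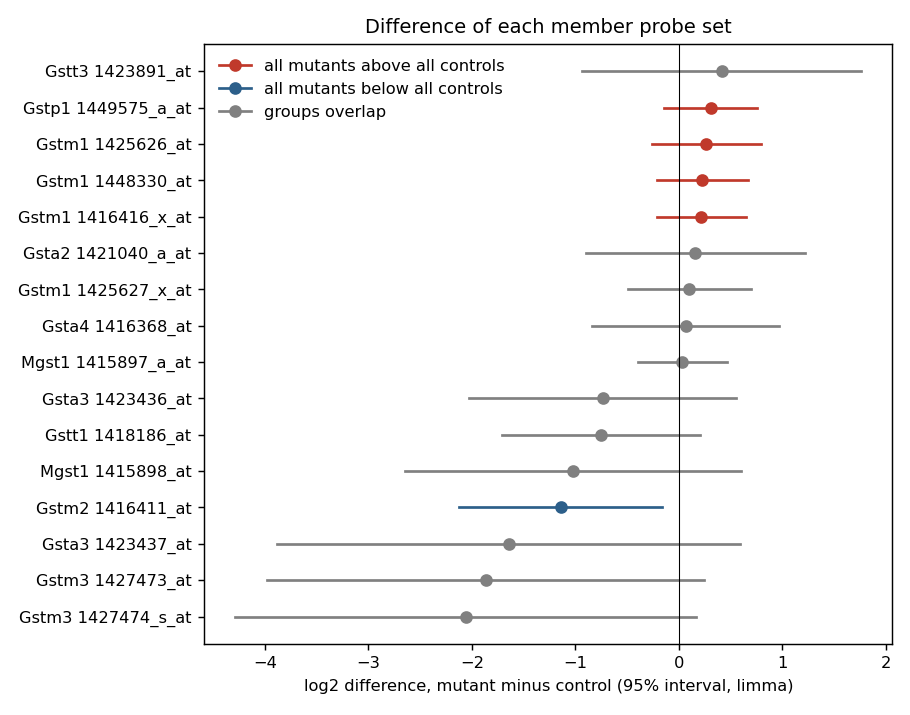
Log2 difference, mutant minus control, of the 16 member probe sets with the 95% interval from limma; colour marks whether the 3 mutants lay above, below or among the 3 controls. The interval of Gstm2 is the 1 that leaves out 0, from -2.12 to -0.16, and its adjusted p is 0.336.

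Over the mutant arrays some members were level and others variable. The range over the 3 mutants was 0.10 to 0.29 on the probe sets of Gstm1 and Gstp1 and the bright probe set of Mgst1, and 1.56 to 4.61 on the other 10 probe sets. It was wider than the range over the controls on 12 of the 16, beside 72.3% of all probe sets kept. Mutant 1 was the lowest mutant on 13 of the 16 member probe sets, where it was the lowest on 40.4% of all probe sets kept, and it was the lowest of all 6 arrays on 9, where the share over all was 30.5%. Mutant 2 was the highest mutant on 11 of the 16, for which no share over all probe sets was taken. At the brightest probe set of each member, the median deviation from the control mean was -0.94, 0.25 and 0.03 in mutants 1 to 3, beside 0.07, 0.07 and 0.14 over all 13144 genes kept. Mutant 1 was also the array with the highest 3' to 5' ratios. With the mean log2 of the 3 ratios, which goes in part with genotype, as a covariate, 13 of the 16 differences were positive and their median was 0.37. The difference was then 1.74 for Gstt3, 1.04 for Gsta4 and 0.78 for Gsta2, and no member passed the threshold.

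Without mutant 1 the groups did not overlap on 7 of the 16 member probe sets, 5 higher, with Gstt3 added, and 2 lower, beside 32.3% of all probe sets kept, 19.8% higher and 12.4% lower. The probe set added on the lower side was 1415898_at of Mgst1, whose mean over the 3 mutants lay under the background level. Without mutant 2 the groups did not overlap on 10, 4 higher and 6 lower, with both probe sets of Gsta3 and of Gstm3 and that of Gstt1 added on the lower side, beside 46.2% of all, 26.8% higher and 19.3% lower. No member passed the adjusted threshold in either fit, where 0.485% and 2.14% of all probe sets were called by limma. At an unadjusted p under 0.05 in limma there were 5 members' probe sets without mutant 1 and 6 without mutant 2, beside 13.3% and 24.6% of all.

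The level members held the brightest probe sets of the family. Of the 130 probe sets with a mean log2 signal above 12, 4 were members, namely 2 of Gstm1 and 1 each of Gstp1 and Mgst1. Every mutant lay above every control in 60% of the 130, and their median difference was 0.35, with quartiles of 0.21 and 0.49. Against these, the 0.22 and 0.23 of Gstm1 and the 0.31 of Gstp1 lay between the quartiles and the 0.03 of Mgst1 below them. The limit of 12 was set after the values were seen. The median of the 130 was -0.10 on the deposited scaling. Deposited signals of these 4 member probe sets reached 7041.8 to 7592.4, where the highest in the table was 11091.2, and whether such signals are compressed was not tested.

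**Figure D4:**
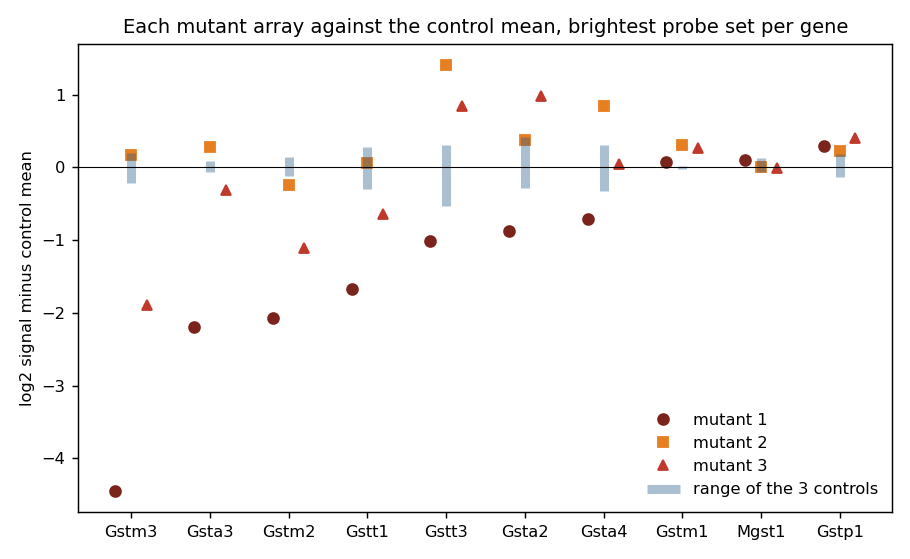
Log2 signal of each mutant array minus the control mean for the 10 members at their brightest probe set, ordered by mutant 1; bars give the range of the 3 controls. Mutant 1 reaches -4.45 for Gstm3 and 0.30 for Gstp1, while mutant 2 ranges from -0.24 for Gstm2 to 1.40 for Gstt3.

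Other glutathione transferases were read from a list of 20 genes, 17 of which had a probe set with 1 symbol and 13 a kept one. None passed the threshold, where 0.114% of all 13144 genes did, and 3 had an unadjusted p under 0.05 in limma. The groups were separated in 4, Gstm6, Gstm4, Gstm5 and Gstcd, each lower, beside 10.8% of all genes lower and 14.1% higher. Gstcd, a protein with a transferase-like domain, had -1.02 (adjusted p = 0.34, limma). The median of the 13 was -0.29, beside 0.06 over all genes, and the median deviations were -1.32, -0.04 and -0.27 in mutants 1 to 3. The groups of Gstz1, Gsto1, Mgst2, Mgst3, Gstk1 and Gstt2 overlapped.

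Genes that make and recycle glutathione showed no call, with 19 of 22 list genes kept and a median of 0.10. Groups were separated higher in 5 and lower in 2, beside 14.1% of all 13144 genes higher and 10.8% lower. On the deposited scaling the counts were 3 and 5, with a median of -0.35. Gpx3, a secreted glutathione peroxidase, had 7.28, 5.89 and 7.46 in mutants, against 3.58, 4.56 and 4.38 in controls (2.70, adjusted p = 0.112, limma). Mat1a, which makes the methyl donor S-adenosylmethionine upstream of cysteine, had 0.75, and Glrx, glutaredoxin, 0.71, both with separated groups and neither past the threshold (adjusted p = 0.282 and 0.290, limma). Hagh, the glyoxalase that releases glutathione, had -0.95 with separated groups (adjusted p = 0.248, limma). Gclc and Gclm, the subunits of the rate-limiting ligase of glutathione synthesis, were named after their values were seen and had -0.78 and -0.27 with overlapping groups (adjusted p = 0.359 and 0.533, limma).

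Export and breakdown of the conjugates held 1 call. Of 16 genes kept, Abcc4, an efflux pump that carries glutathione and conjugates, rose, with 7.18, 6.44 and 6.59 in mutants against 4.18, 3.94 and 4.02 in controls (2.69, adjusted p = 0.0363, limma). It stayed past the threshold in 6 of the 16 other settings, with an adjusted p of 0.00912 to 0.271 in limma over all of them, and its difference was 1.52 after log2(signal + 32) and 2.24 or more in the others. Among the settings that ended the call were the covariate (0.221) and leaving out mutant 3 (0.147) or control 1, 2 or 3 (0.26, 0.271 and 0.148). The median of the list was -0.73, with 2 genes separated higher and 6 lower, beside 14.1% of all 13144 genes higher and 10.8% lower. Acy3, an aminoacylase that acts on mercapturic acids, had -2.22 (adjusted p = 0.319), Chac1, which degrades glutathione, -0.91 (adjusted p = 0.309), and Oplah, 5-oxoprolinase, 1.01 (adjusted p = 0.299), all with separated groups and none past the threshold in limma.

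The regulators and co-induced genes of the family did not share 1 direction. Of 23 genes kept from the NRF2 list none passed, and the median was -0.04. Groups were separated higher in 9 and lower in 3, beside 14.1% of all 13144 genes higher and 10.8% lower. On the deposited scaling 1 was separated higher and 6 lower, with a median of -0.49. After quantile normalization the counts were 8 and 4, with a median of -0.19. Among the 23 genes Aldh1a1, a retinal dehydrogenase, had -2.64 (adjusted p = 0.167), Cbr1 and Cbr3, carbonyl reductases, 1.25 and 1.78 (adjusted p = 0.253 and 0.292), and malic enzyme Me1 -1.48 (adjusted p = 0.285, limma). Nfe2l2 itself, named after its values were seen, had 5.94, 8.31 and 7.81 in mutants, against 8.07, 7.60 and 7.95 in controls (-0.52, adjusted p = 0.651, limma). In the CAR and PXR list of 14 genes kept the median was -0.02. Sult1e1, estrogen sulfotransferase, was the 1 gene past the threshold, with 9.40, 8.76 and 11.01 in mutants against 0.98, 2.16 and 2.96 in controls (adjusted p = 0.0129, limma). The control mean of 2.03 lay below the background level of controls, 2.88, so no size is given. It stayed past the threshold in 10 of the 16 other settings, and not with signals under 16 set to 16, without the filter, without the variance trend, with the covariate, or without control 1 or 2 (adjusted p = 0.0676, 0.223, 0.0666, 0.1, 0.0749 and 0.131, limma). Cyp2c55 had -2.82 with separated groups and did not pass (adjusted p = 0.221), the uptake transporter Slco1a4 had 1.55 with separated groups (adjusted p = 0.285), and Gadd45b, a stress-inducible gene, 2.27 with overlapping groups (adjusted p = 0.307, limma). The 6 genes kept of the AHR list had a median of 0.56 and no call. Arnt, the partner of AHR, had 0.58 with separated groups, and the AHR target Cyp1a2 -1.19 with overlapping groups (adjusted p = 0.386 and 0.425, limma).

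Markers of liver cell types were read beside these values. All 8 hepatocyte markers with a kept probe set were positive and 7 had separated groups, with a median of 0.34, and their summed signal was 56996 to 73844 in mutants and 46117 to 53892 in controls. Of the 8, 7 were above the log2 signal of 12, where 60% of all probe sets were separated higher. The median of the 8 was -0.11 on the deposited scaling, where 1 was positive, and after quantile normalization it was 0.06, with none and 1 separated. Of the stellate cell and myofibroblast list all 10 genes were kept and 8 were negative, with median deviations of -2.00, 0.11 and -0.88 in mutants 1 to 3 and a summed signal of 877.7 to 2851 in mutants and 2701 to 2980 in controls. Col3a1, a fibrillar collagen, had -3.56 with separated groups and did not pass (adjusted p = 0.296, limma). For the Kupffer cell and macrophage list 10 of 10 were kept and 8 were negative, with a summed signal of 1136 to 1841 in mutants and 1697 to 2339 in controls, and for the endothelial list 10 of 10 were kept with a median of -0.09. The medians of the pericentral and periportal hepatocyte lists were -0.16 and 0.25, and those of the erythroid, lymphocyte and neutrophil lists 0.09, -1.02 and -0.50. Of the periportal genes 4 were positive and 2 negative, with Cyp2f2 at -4.53 and Ass1 at 1.41 (adjusted p = 0.0757 and 0.167, limma). Of the pericentral genes 3 were positive and 5 negative. Lect2 had -2.34, Oat 1.01 and Slc1a2 1.01 (adjusted p = 0.329, 0.287 and 0.315, limma). Each of these named genes had separated groups. The cholangiocyte and progenitor list had 6 genes kept, a median of 0.34 and a summed signal of 137.4 to 307.5 in mutants and 118.1 to 317.1 in controls. No list held a call. Cd3g of the lymphocyte list and Camp and Ltf of the neutrophil list were at the floor on at least 1 array, and no kept marker of the other lists was. In some lists the median deviation was lowest in mutant 1, next in mutant 3 and highest in mutant 2, as in Gstm3, Gstm2 and Gstt1. These were the stellate, Kupffer (-0.61, -0.05 and -0.48 in mutants 1 to 3), endothelial (-0.85, 0.80 and -0.28), pericentral (-0.97, 0.37 and 0.18) and cholangiocyte (0.11, 0.71 and 0.57) lists. The 3' to 5' ratios ran in the opposite order, and so did the hepatocyte list (0.52, 0.17 and 0.33). Mutant 3 was lowest in the lymphocyte (-1.10, -0.24 and -1.62), neutrophil (-0.17, 0.09 and -1.12) and erythroid (0.48, 0.14 and 0.06) lists and highest in the periportal list (0.06, 0.22 and 0.38). The part of cell type and of RNA integrity in these orders was not tested. In whole liver, fewer cells of a type and less RNA per cell cannot be told apart.

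Profiles most like those of the members were sought among 13122 genes outside the family. Likeness was the root mean square difference over the 6 arrays between log2 signals that were each centred on their mean. The 3 nearest to Gstm2 were Mpp1, Ddx58 and Hpf1, at 0.09, 0.10 and 0.10, where the median gene stood at 0.92. Nearest to Gstm3 were Slc23a1, Lactb2 and Akr1c20, at 0.24 each, with a median gene at 1.77. Nearest to Gstt1 were Tspan2, Loxl1 and Spag7, at 0.08, 0.10 and 0.11, with a median gene at 0.81. None of these 9 genes passed the threshold.

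**Figure D5:**
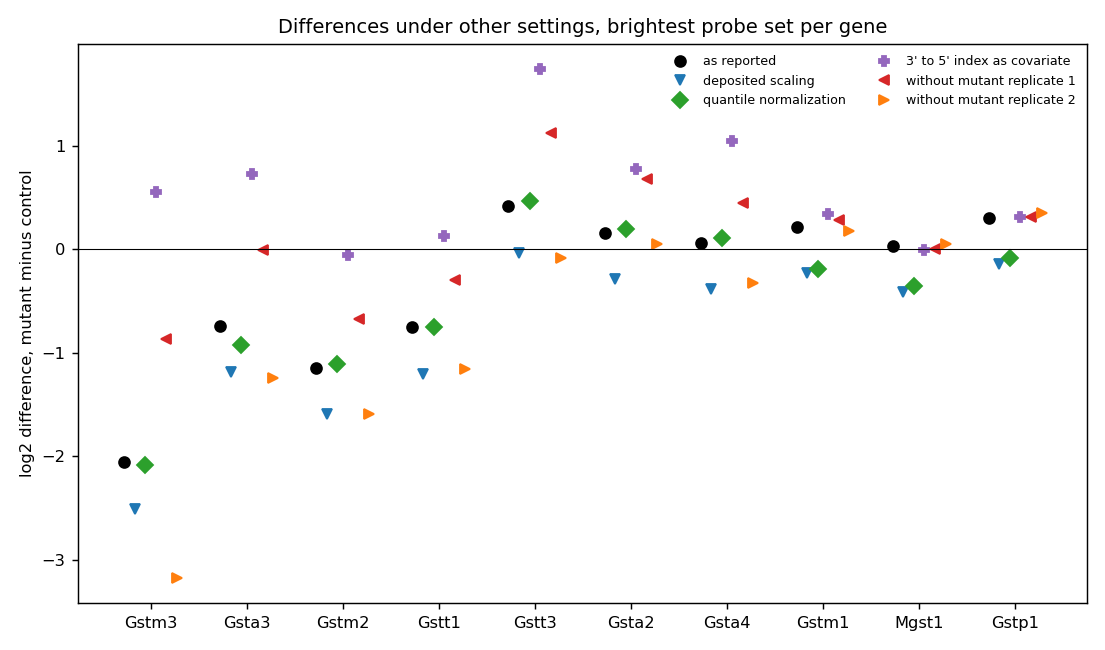
Log2 difference, mutant minus control, of the 10 members at their brightest probe set as reported and under 5 other settings. Gstm2 stays below 0 in all 6 and ranges from -1.59 to -0.06. Gstm3, Gsta3 and Gstt1 cross 0 with the 3' to 5' index as a covariate, and so does Mgst1, to -0.008. Gstm1, Gstp1 and Mgst1 cross 0 on the deposited scaling and after quantile normalization. Gstt3, Gsta2 and Gsta4 cross it on the deposited scaling, and without mutant 2 Gstt3 and Gsta4 cross it too, to -0.08 and -0.33.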

How the data were processed

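Total RNA of 6 livers was labelled with biotin and hybridised to 1 array each, per the labels' protocols. The deposited table holds linear intensity values; the signals came from GCOS, per the submitters' processing notes, and no source read for this work names the algorithm or its scaling. Arrays were scaled to a common trimmed mean (2% left out at each end), signals under 1 were set to 1, log2 was taken, and the lower 40% of probe sets by mean were left out, at a threshold of 2.10. Mutant and control arrays were compared with limma 3.58.1 in R 4.3.3, with a variance trend, two-sided, adjusted by Benjamini-Hochberg over 27022 probe sets. This step was tested on simulated data. A gene was represented by its brightest kept probe set. Of 45101 probe sets, 34945 had 1 symbol in the platform annotation, 932 several and 9160 none. Of the single symbols, 34741 were looked up in RefSeq by Entrez number and given the symbol found there, changed or not. The number of arrays, 3 per group, limits the precision. The members and lists were chosen with earlier results of these data known. Named genes are all members, genes of each list past the threshold or up to 4 with the smallest p, and the 3 nearest profiles of the 3 members with the smallest p. Alternatives were other scalings, floors and filters, no variance trend, the replicate number as a block, the 3' to 5' index (mean log2 ratio of Actb, Gapdh and Pcx) as a covariate, and each array left out. Exact permutation tests used SciPy 1.17.1, where 3 against 3 arrays allow no p below 0.1.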

Additional observations from a re-analysis of the deposited data

How the results depend on the processing

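No member passed the threshold in any of the 16 other settings, and the smallest adjusted p was 0.0567 (Gstm2 without mutant 2, limma). Of 255 member values in these settings, 230 kept their direction and 25 turned. On the deposited scaling all 9 positive differences turned: Mgst1 (1415897_a_at) to -0.42, Gsta4 to -0.39, Gstm1 to -0.23, -0.19, -0.35 and -0.22, Gsta2 to -0.29, Gstt3 to -0.036 and Gstp1 to -0.14. After quantile normalization Mgst1 had -0.35, Gstm1 -0.19 and -0.17 and Gstp1 -0.079. With the 3' to 5' index, which goes in part with genotype, as a covariate Gstt1 had 0.13, Gsta3 0.72 and 0.95, Gstm3 0.64 and 0.56, and Mgst1 -0.0077. With single arrays left out, Gsta4 ranged from -0.33 to 0.45, Gstt3 from -0.080 to 1.13, Gsta2 from -0.25 to 0.68, Gstm1 (1425627_x_at) from -0.14 to 0.23 and Mgst1 from -0.00036 to 0.10. The cause was not tested. The number of member probe sets with separated groups was 5, and 1 on the deposited scaling, 3 after quantile normalization and 5 to 10 with single arrays left out (10 without mutant 2, 4 higher and 6 lower, where 46.2% of all probe sets kept were separated). It uses no variance model, so the block, covariate and trend settings do not bear on it. Over all probe sets 20 were called (4 higher, 16 lower), 35 on the deposited scaling (3 and 32), 32 with median centring, 107 (9 and 98) after log2(signal + 32), 9 with signals under 16 set to 16 (all lower), 0 without the filter (4704 at an unadjusted p under 0.05, limma), 11 with the lower 60% left out, 9 without the variance trend, 5 with the covariate (all lower) and 2 to 579 with single arrays left out (131 without mutant 1, 579 without mutant 2). With the replicate number as a block 22 were called and no member. Same-numbered mutants and controls had correlations of deviations of -0.04, 0.02 and 0.04, so no pairing by number was seen. With 3 arrays per group this cannot exclude one. With the mean over a gene's kept probe sets the medians of the periportal and erythroid lists moved from 0.25 and 0.09 to -0.026 and -0.26. The median of the 10 members was 0.05 and turned to -0.21, and that of the NRF2 list was -0.04 and turned to 0.04. Mgst1 (1415898_at) was not tested with the lower 60% left out. Arrays per group limit what these data can show.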
